A study of Mus musculus with 4 samples.

Results

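The insulin-like growth factor (IGF) binding proteins, IGF1 and its receptors were followed as 10 genes in immortalised mouse embryonic fibroblasts (MEFs) with and without PA1. They were Igfbp2 to Igfbp7, Igf1, Igf1r, Insr and Irs1, and they were found as the probe sets whose platform gene symbol is 1 of these names. This gave 28 probe sets for 10 of the 18193 genes with a single symbol on the array. The genes were chosen by the measured signal differences between PA1 -/- and PA1 +/+ cells on these arrays, so those differences are given below as a description, and nothing is read from a test of them.

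The PA1 -/- cells (2 arrays) were immortalised MEFs with loxP-flanked PA1 alleles infected with a retrovirus for Cre, the recombinase that cuts out DNA flanked by loxP sites. The PA1 +/+ cells (2 arrays) were the same loxP-flanked MEFs infected with the empty retroviral vector. All cells grew in DMEM with 10% fetal bovine serum and were selected at 2.0 µg/ml puromycin for 3 days, and then once more. Whether the infected cells were clones or pools, and which part of the gene Cre removes, the labels do not say. The study describes duplicate RNAs, numbered 1 and 2 in each genotype, without naming separate cultures, so standard errors and p-values measure the spread between these samples alone, and it may be technical. PA1 was read here as Pagr1a, the gene of a subunit of the KMT2C and KMT2D histone H3 lysine 4 methyltransferase complexes. Its brightest probe set read 108 and 113 in PA1 -/- cells at numbers 1 and 2, against 1340 and 1389 in PA1 +/+ cells.

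IGF1 and IGF2 are secreted growth factors that act through the IGF1 receptor, a tyrosine kinase closely related to the insulin receptor. Both receptors phosphorylate docking proteins such as IRS1, which recruit PI3 kinase and so start AKT and mTOR signalling. The IGF binding proteins hold IGFs outside the cell, where they can block access to the receptor, prolong the life of the ligand or, in some settings, deliver it, and fibroblasts secrete several of them.

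The arrays gave MAS5 signals, which are linear brightness values per probe set, with medians between 63.2 and 66.4 on the 4 arrays. Log2 values were taken after adding 9.96, the 20th percentile of all signals, so a difference understates the change of a dim gene. Of 45037 probe sets, the brighter 50% (22519, with the boundary near a signal of 62.8) were tested with limma. Of the 28 probe sets 22 were among them, and these cover every one of the 10 genes but Igfbp3. A gene was read through its brightest probe set unless stated otherwise. Log2 signals correlated across probe sets at 0.971 and 0.977 between the 2 genotypes of one number, and at 0.920 (PA1 -/-) and 0.918 (PA1 +/+) between the 2 numbers of one genotype. Genotypes were compared within each number, as the rule that defined the genes asked. Fibroblast markers were bright, with 12 of 13 in the tested 50% and summed signals of 71972 to 77099 in PA1 -/- cells and 86868 to 90586 in PA1 +/+ cells. Leukocyte markers (2 of 7 in the tested 50%) summed to 357 and 474 in PA1 -/- cells and 383 and 403 in PA1 +/+ cells, and endothelial ones (1 of 5) to 138 and 153, against 134.4 and 134.5. Ptprc and Pecam1, which define these cells, read at most 3.95 and 10.2 in PA1 -/- cells, against 16.8 and 5.61 in PA1 +/+ cells. Of the leukocyte markers in the tested 50%, Csf1r read 175 and 147 in PA1 -/- cells, against 94.9 and 91.3 in PA1 +/+ cells. Cd68 read 173 and 133, against 224 and 165. The endothelial marker in the tested 50%, Kdr, read 74.9 and 74.6, against 82.5 and 48.2. Epithelial, skeletal muscle, adipocyte, hepatocyte, neural and pluripotent markers had between 0 and 2 genes each in the tested 50%. No marker was listed at 0.

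The promoters of Igfbp2, Igfbp5 and Igfbp4 are printed because these were the 3 genes at least 2-fold lower in PA1 -/- cells at both numbers. They run from 250 bases before to 50 bases after the RefSeq transcript start (build GRCm38.p6), 5′ to 3′ on the strand of the gene, and capitals mark the motif matches described below.
Igfbp2, chr1:72824230-72824529, plus strand: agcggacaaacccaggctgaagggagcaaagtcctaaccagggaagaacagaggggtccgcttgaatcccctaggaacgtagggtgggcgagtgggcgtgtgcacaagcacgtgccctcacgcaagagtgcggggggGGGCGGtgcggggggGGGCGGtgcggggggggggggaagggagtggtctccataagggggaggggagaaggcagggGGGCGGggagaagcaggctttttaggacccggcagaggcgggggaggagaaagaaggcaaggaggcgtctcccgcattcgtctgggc
Igfbp5, chr1:72874816-72875115, minus strand: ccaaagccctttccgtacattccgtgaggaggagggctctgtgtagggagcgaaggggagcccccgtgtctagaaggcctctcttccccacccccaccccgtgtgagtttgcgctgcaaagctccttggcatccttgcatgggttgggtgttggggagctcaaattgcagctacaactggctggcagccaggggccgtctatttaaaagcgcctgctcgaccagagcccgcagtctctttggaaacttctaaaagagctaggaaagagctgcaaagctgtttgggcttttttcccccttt
Igfbp4, chr11:99040994-99041293, plus strand: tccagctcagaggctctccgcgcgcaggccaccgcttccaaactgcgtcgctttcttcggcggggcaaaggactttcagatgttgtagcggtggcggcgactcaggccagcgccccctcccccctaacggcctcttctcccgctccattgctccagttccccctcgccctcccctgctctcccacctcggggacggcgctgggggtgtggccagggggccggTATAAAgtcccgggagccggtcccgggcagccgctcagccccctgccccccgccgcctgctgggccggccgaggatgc

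RefSeq held promoters for 9 of the 10 genes, with a second start for Igfbp2, 10 in all. In the order of genes on chromosome 1, Igfbp2 and Igfbp5 are next to each other and face in opposite directions, with Rpl37a on the outer side of Igfbp2 and Tnp1 on that of Igfbp5. The 10 promoters had a median GC content of 69.2% and a median of 22.5 CpG dinucleotides, against 52.7% and 7 over all 32851 promoters of the same length. Both strands were searched for TATAAA, the TATA box, which 13.6% of all promoters hold, and it began 28 bases before the start of Igfbp4 and 148 bases before that of Igfbp6. The GC box GGGCGG, which 35.7% of all promoters hold, occurred 3 times in the Igfbp2 promoter shown, 4 times in that of Igfbp7 and 2 times each in those of Igf1r and Irs1. The C/EBP-type sequence TTGCNNAA (10.8% of all promoters) and the FOXO sequence GTAAACA (3.65%) were in none of the 10 windows. The matches did not overlap each other, and a match or its absence in these windows says nothing of a factor's binding.

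**Figure D1:**
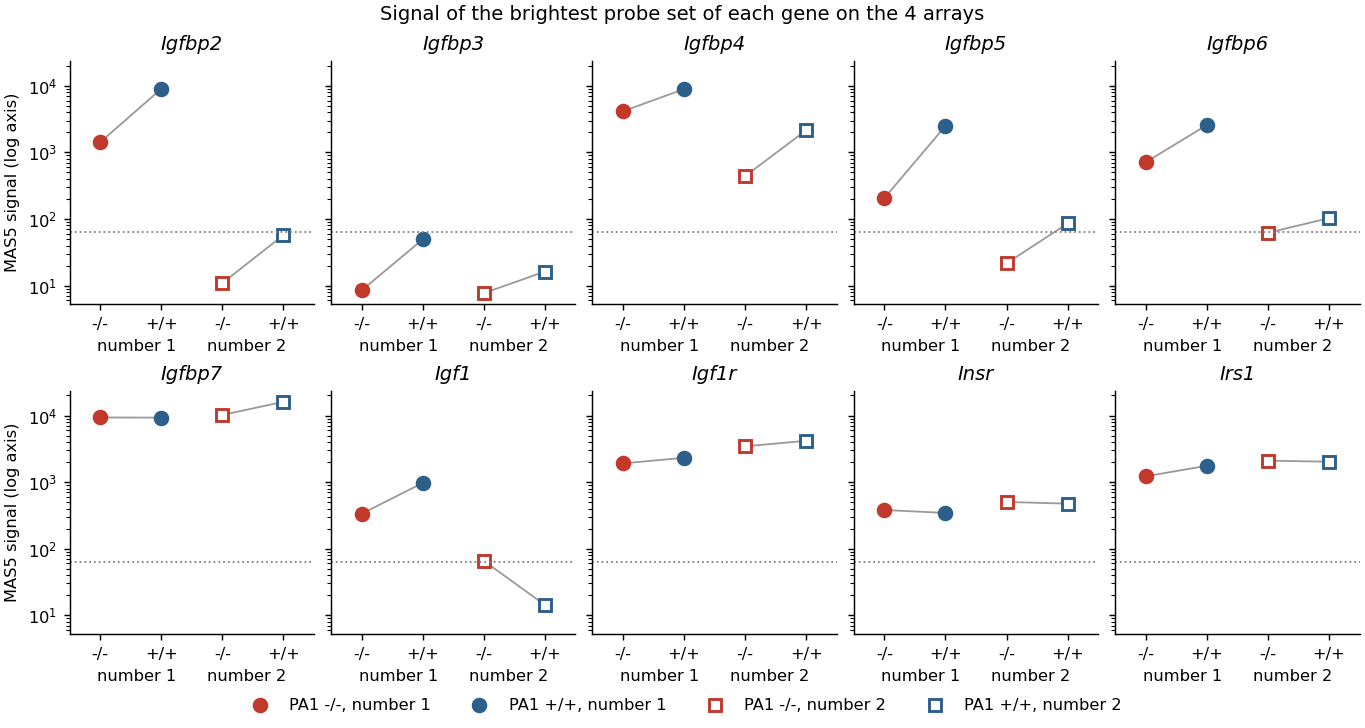
MAS5 signal of the brightest probe set of each of the 10 genes on a log axis, with PA1 -/- (red) left of PA1 +/+ (blue) at number 1 (filled circles) and at number 2 (open squares). Grey lines join arrays of one number, and the dotted line is the boundary of the tested 50%, 62.8. Igfbp2, Igfbp4, Igfbp5 and Igfbp6 are lower in PA1 -/- at both numbers and lower at number 2 in both genotypes, whereas Igfbp7, Igf1r, Insr and Irs1 differ less.

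Among the binding proteins, Igfbp2, Igfbp4 and Igfbp5 were at least 2-fold lower in PA1 -/- cells at both numbers on the log2 scale used. Igfbp6 was lower by a smaller margin, Igfbp7 was close to equal at number 1, and Igfbp3 was dim. In the plot of signals by array, the same 4 genes also stood far apart between the numbers, so the 2 genotypes overlapped when numbers were ignored.

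Igfbp2, a binding protein made in large amounts by fetal tissues, had the widest range. At number 1 it read 1421 in PA1 -/- cells, against 8992 in PA1 +/+ cells, and at number 2 it read 10.9, against 57.2. The PA1 -/- array was the lower one at each number, by 6.33-fold in signal at number 1. The log2 differences were -2.65 at number 1 and -1.69 at number 2, and their mean was -2.17 with a standard error of 3.04 (n = 2 each). Both arrays of number 2 were under the boundary of 62.8, and 10.9 is close to the 20th percentile of all signals, so no fold in signal is given there.

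Igfbp5, which lies beside Igfbp2 and encodes a binding protein that attaches to the extracellular matrix, read 207 in PA1 -/- cells and 2502 in PA1 +/+ cells at number 1. At number 2 it read 21.6, against 85.9. The lower value was again that of PA1 -/- each time, by 12.1-fold in signal at number 1 and by 3.98-fold between the dimmer readings of number 2. On the log2 scale this was -3.53 and -1.60, with a mean of -2.57 (SE 1.79). A second, dimmer probe set of Igfbp5 did not share the pattern, with 64.0 against 71.8 at number 1 and 37.7 against 26.9 at number 2. Of the nearest genes, Rpl37a, a ribosomal protein gene, differed by -0.13 at number 1 and -0.19 at number 2, and Tns1, which encodes a focal adhesion protein and comes after Tnp1, by 0.73 and 0.21. Tnp1 itself read between 3.04 and 14.7 on all arrays.

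Igfbp4, a binding protein that inhibits IGF action and is cleaved by the protease PAPP-A, has 6 probe sets, all tested. The brightest read 4151 and 441 in PA1 -/- cells at numbers 1 and 2, against 8947 and 2155 in PA1 +/+ cells. The 6 probe sets were lower in PA1 -/- at both numbers without exception, by 2.04-fold to 3.48-fold in signal at number 1 and, for the 5 brighter ones, by 1.90-fold to 4.89-fold at number 2. The dimmest read 7.89 in PA1 -/- cells at number 2, under the 20th percentile of all signals, against 109.9 in PA1 +/+ cells, so no fold in signal is given for it. The brightest gave log2 differences of -1.11 and -2.26 (mean -1.68, SE 1.25), and 5 of the 6 passed 2-fold at both numbers on that scale. These probe sets read the same gene in the same RNA, so they are no replicates of each other. The other probe sets differed by -1.02 to -1.72 at number 1 and by -0.91 to -2.75 at number 2.

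**Figure D2:**
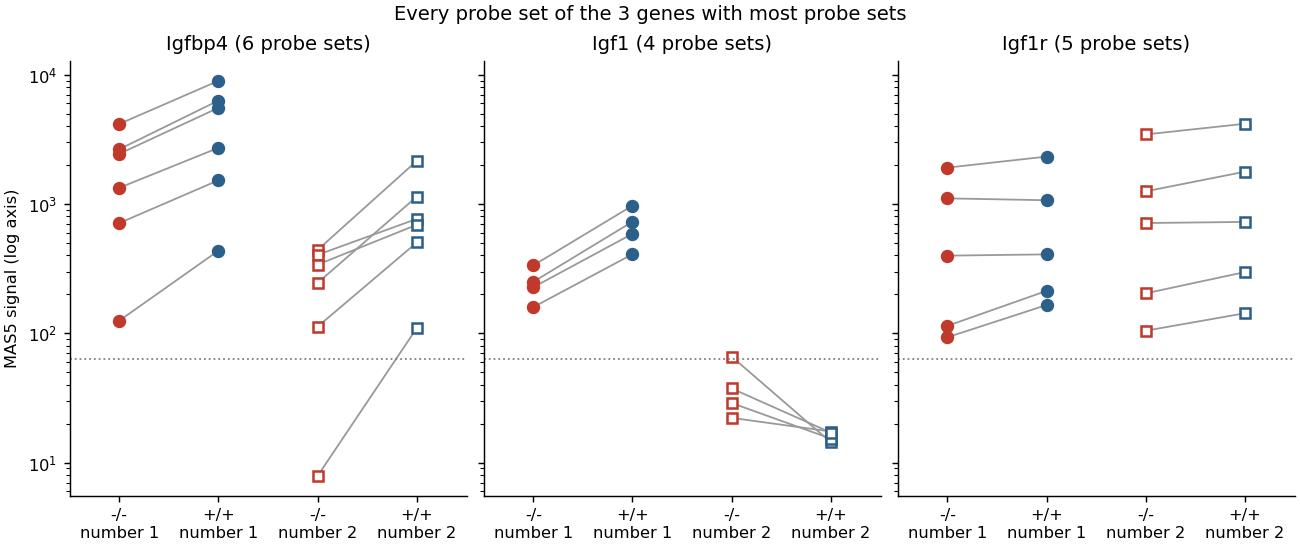
MAS5 signal (log axis) of every probe set of Igfbp4, Igf1 and Igf1r, with PA1 -/- (red) left of PA1 +/+ (blue) at number 1 (filled) and number 2 (open), where each grey line is 1 probe set and the dotted line is the boundary of the tested 50%, 62.8. All 6 lines of Igfbp4 slope the same way at both numbers, and the 4 of Igf1 slope one way at number 1 and the other way among dim readings at number 2. Those of Igf1r are flatter than those of Igfbp4, though a dim one reads 114 against 212 at number 1.

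Igfbp6, a binding protein that prefers IGF2 over IGF1, read 714 in PA1 -/- cells, against 2583 in PA1 +/+ cells at number 1. At number 2 the values were 62.1 and 103. The log2 differences were -1.84 and -0.65, with a mean of -1.25 (SE 1.84), so only number 1 passed 2-fold.

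Igfbp3, the main carrier of IGFs in serum, was dim on all arrays and was not tested. Its brighter probe set read 8.46 and 7.70 in PA1 -/- cells, against 49.3 and 16.2 in PA1 +/+ cells, and the other 5.15 and 0.765, against 21.9 and 12.8. Both probe sets were lower in PA1 -/- at both numbers without overlap, by -1.69 and -0.57 for the first and by -1.08 and -1.09 for the second on the log2 scale, but all 8 readings lay under the boundary of 62.8.

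Igfbp7, a secreted relative that binds IGFs weakly, was bright throughout. It read 9350 and 10180 in PA1 -/- cells at numbers 1 and 2, against 9288 and 16062 in PA1 +/+ cells. The log2 difference was 0.01 at number 1 and -0.66 at number 2 (mean -0.32, SE 0.291), and the wild-type array of number 2 stood above the other 3. A second tested probe set gave -0.25 and -0.09.

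The ligand Igf1 differed in direction between the numbers. Its brightest probe set read 334 in PA1 -/- cells and 969 in PA1 +/+ cells at number 1, and 65.9 against 14.3 at number 2. At number 1 the 4 Igf1 probe sets were lower in PA1 -/- by 2.57-fold to 2.92-fold in signal, which is -1.31 to -1.51 on the log2 scale. At number 2 all 4 were higher in PA1 -/-, by 1.27-fold to 4.61-fold, but every one of these readings was between 14.3 and 65.9 and so near or under the boundary of 62.8. The mean difference of the brightest was 0.07 with a standard error of 1.89, and those of the other 3 were between -0.25 and -0.64.

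By the brightest probe set, the receptors and the docking protein differed little between genotypes. Igf1r, the receptor through which both IGFs signal, read 1907 and 3445 in PA1 -/- cells, against 2322 and 4167 in PA1 +/+ cells. Its log2 difference was -0.28 at number 1 and -0.27 at number 2 (SE 0.431 for the mean), and the other 4 probe sets had means of -0.03 to -0.65. A dim one of these read 114 and 105 in PA1 -/-, against 212 and 143 in PA1 +/+, and was the 1 tested probe set of the family whose genotypes did not overlap.

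Insr, the insulin receptor, read 381 and 503 in PA1 -/- cells, against 344 and 474 in PA1 +/+ cells, with log2 differences of 0.14 and 0.08 (SE 0.313 for the mean). Of its dim probe sets, not tested, one read higher in PA1 -/- (61.1 and 89.7, against 6.43 and 35.3) and the other lower (10.7 and 17.9, against 19.7 and 31.3). Irs1, which couples both receptors to PI3 kinase, read 1224 and 2098 in PA1 -/- cells, against 1757 and 2022 in PA1 +/+ cells. Its difference was -0.52 at number 1 and 0.05 at number 2 (mean -0.23, SE 0.332).

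**Figure D3:**
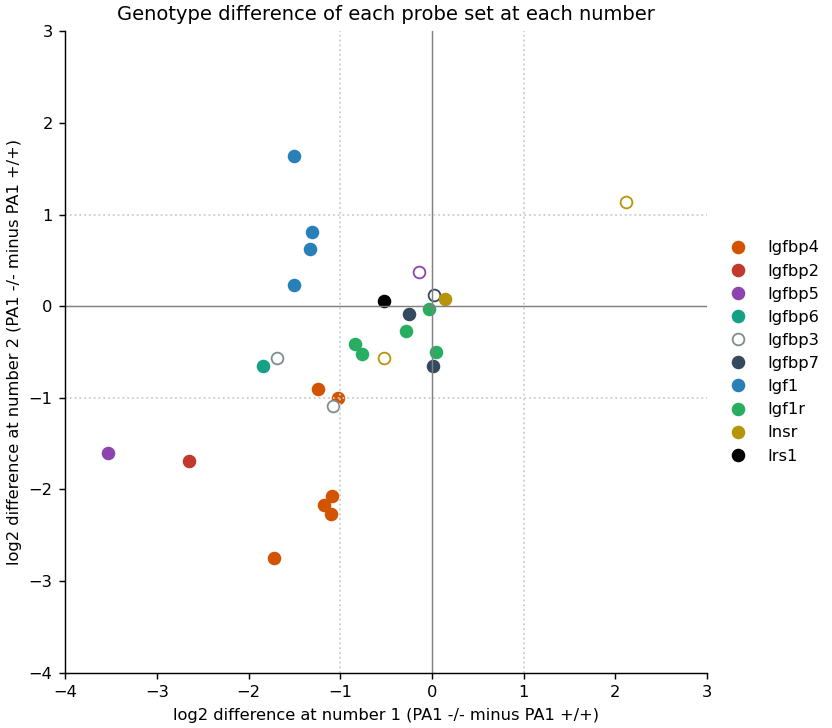
Log2 difference, PA1 -/- minus PA1 +/+, of each of the 28 probe sets at number 1 (horizontal axis) and number 2 (vertical axis), coloured by gene, with filled circles for tested and open circles for untested probe sets and dotted lines at 2-fold. Igfbp2, the tested Igfbp5 probe set, 5 of 6 Igfbp4 probe sets and 1 untested Igfbp3 probe set lie past 2-fold lower on both axes, 1 untested Insr probe set lies past 2-fold higher on both, and the 4 Igf1 probe sets lie at the upper left.

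The plot of differences at each number sums up the family. By the brightest probe set, 6 of the 10 genes were lower in PA1 -/- at both numbers (5 of the 9 tested), and 1, Insr, was higher at both. Of all tested genes 29.3% were lower at both and 33.9% higher at both. The 3 genes past 2-fold lower at both stood beside 0.831% of all tested genes, and 0 genes were past 2-fold higher at both by the brightest probe set, against 0.187%. Without regard to number, 1 of the 22 tested probe sets was lower in PA1 -/- without overlap and 0 were higher, against 12.3% and 15% of all tested probe sets. As the genes were picked with these differences known, nothing is read from these counts. In the limma fit with genotype as the only term 0 of the 22 passed an adjusted p under 0.05, as did 0% of all 22519 (440 probe sets, 1.95%, had an unadjusted p under 0.05). In that fit the difference between numbers counts as spread, as the standard errors above show, so a count of 0 is no sign of equal levels. A comparison without 1 array holds unequal numbers and so carries part of that difference. For Igfbp2 it gave 1.36 without the wild-type array of number 1 and 0.88 without the knockout array of number 2, and for Igfbp6 1.01 and 0.42. The Igfbp4 and Igfbp5 differences stayed below 0 without any 1 array, though that of Igfbp4 was -0.08 without the knockout array of number 2 and that of Igfbp5 was -0.21 without the wild-type array of number 1.

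The difference between replicate numbers, which is separate from that between genotypes by design, was large for the same genes. Igf1, Igfbp2, Igfbp4, Igfbp5 and Igfbp6 were lower at number 2 than at number 1 in both genotypes, and Igf1r and Igfbp7 were higher. The labels give no difference in treatment between the numbers. With number and genotype as terms, limma called 28.2% of all tested probe sets at an adjusted p under 0.05, and 17 of the 22 of the family. Of tested genes 16.2% were called lower and 14.9% higher at number 2, against 5 and 2 of the 9 of the family. The family's counts hold genes that passed the filter only where they were bright, so nothing is read from them. This fit has 1 residual degree of freedom and leans on the spread shared over all probe sets.

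Igfbp2, Igf1 and Igfbp5 read mostly under the boundary of 62.8 at number 2 and came among the tested genes through number 1, so they had to differ, and their values are a description. Igfbp2 was lower at number 2 by a log2 difference of -6.10 in PA1 -/- cells and -7.07 in PA1 +/+ cells. The same difference was -2.18 and -5.33 for Igf1 and -2.78 and -4.71 for Igfbp5. Igfbp6 was at -3.92 over both genotypes (SE 0.264, limma adjusted p = 1.38e-06), and in signal it was 11.5-fold lower in PA1 -/- and 25.0-fold lower in PA1 +/+ cells. Igfbp4 was at -2.63 (SE 0.229, limma adjusted p = 9.14e-06). These 5 genes were at least 4-fold lower at number 2 in both genotypes, beside 1.64% of tested genes, and nothing is read from that count. Other probe sets of Igf1 and Igfbp4 went the same way, with -2.90 to -3.89 for Igf1 and -1.95 to -2.85 for Igfbp4.

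Igf1r, Igfbp7, Insr and Irs1 read higher at number 2 by their brightest probe sets. Igf1r was 1.81-fold higher at number 2 in PA1 -/- and 1.79-fold higher in PA1 +/+ cells (log2 difference 0.85, SE 0.148, limma adjusted p = 0.00153). Of its other probe sets 3 gave 0.45 to 0.93 and 1 gave -0.33. Igfbp7 differed by 0.46 (SE 0.143, limma adjusted p = 0.0337), with 0.12 in PA1 -/- and 0.79 in PA1 +/+ cells. Its second tested probe set gave 0.20 and missed the threshold (limma adjusted p = 0.578). Insr (0.42) and Irs1 (0.49) also missed it, with limma adjusted p of 0.125 and 0.0678. Some fibroblast markers also differed between the genotypes or between the numbers. The log2 differences between PA1 -/- and PA1 +/+ cells at numbers 1 and 2 were -1.53 and -1.24 for Dcn and -1.29 and -1.95 for Prrx1. They were -2.67 and -1.18 for Postn and -3.41 and -0.74 for Pdgfra. Col1a1, Col1a2, Pdgfrb and Vim were also lower in PA1 -/- at both numbers, by smaller margins. Col3a1, Fn1 and Thy1 changed direction between the numbers. Twist1 (0.09 and 0.26) and the dim, untested Lum (0.39 and 0.43) were higher in PA1 -/- at both. Prrx1, a mesenchymal transcription factor gene, read 69.1 in PA1 -/- and 295 in PA1 +/+ cells at number 2, against 1160 and 2850 at number 1, and Postn, a matrix protein gene, read 4.36 and 22.4, against 427 and 2766. Vim, the intermediate filament gene of fibroblasts, read 24978 in PA1 -/- and 29116 in PA1 +/+ cells at number 2, against 20164 and 21246 at number 1. Skeletal muscle markers summed to 953 in PA1 -/- and 893 in PA1 +/+ cells at number 2, against 382 and 317 at number 1. Most of that rise was in Acta1, at 768 and 762 at number 2, against 159 and 138 at number 1. Myod1, Myog and Ckm were lower at number 2 in both genotypes and Myh3 was higher. Des was lower in PA1 -/- and higher in PA1 +/+ cells. Epithelial markers summed to 349 and 307 at number 2, against 493 and 706 at number 1, and adipocyte markers to 489 and 448, against 116 and 338. Krt18 read 27.6 and 11.4, against 266 and 298, whereas Epcam read 190 and 163, against 112 and 145. Fabp4 read 462 and 407, against 70.2 and 297. Pluripotent markers summed to 29.5 and 38.3 at number 2, against 128 and 219 at number 1, and hepatocyte markers to 50.3 and 64.4, against 181 and 131. No pluripotent or hepatocyte marker was in the tested 50%, and Afp made up most of the hepatocyte sum at number 1, at 130 and 103. The part of these markers in the results was not tested, and in bulk RNA fewer cells of a type and less RNA per cell cannot be told apart.

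**Figure D4:**
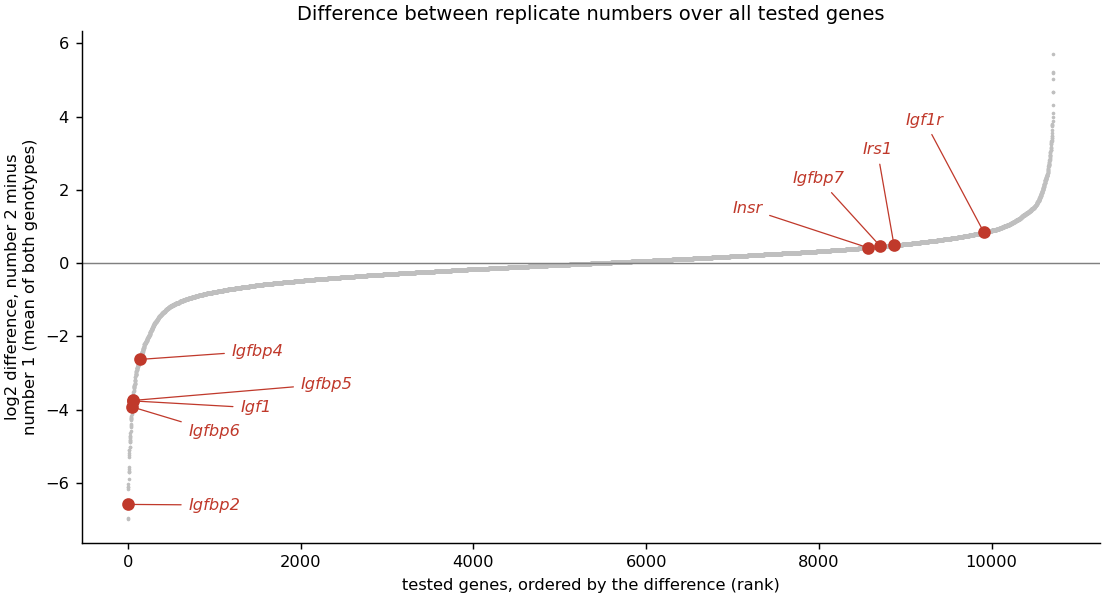
Log2 difference between the arrays numbered 2 and 1, as the mean of both genotypes, for each of the 10714 tested genes (grey points) in order of size, with the 9 tested genes of the family in red. Igfbp2 at -6.58, Igfbp6, Igf1, Igfbp5 and Igfbp4 lie at the low end, and Insr, Igfbp7, Irs1 and Igf1r lie above 0.

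The genes whose pattern over the 4 arrays was most like that of Igfbp2 were Postn, the homeobox gene Hoxc8 and Ptx3, which encodes a secreted pentraxin. Likeness was the sum of squared differences between log2 values centred on each gene's mean, over 4 arrays, and came to 0.954, 1.59 and 1.69. Ptx3 read 4712 and 42.4 in PA1 -/- cells at numbers 1 and 2, against 9503 and 191 in PA1 +/+ cells. Hoxc8 read 507 and 1.56, against 1580 and 5.31. All 3 were far lower at number 2 in both genotypes, as Igfbp2 was.

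Beyond these 10 genes, 67 other genes of the IGF pathway in 8 lists were tested. In PA1 -/- cells 33 were lower and 34 higher, with a median log2 difference of 0.00, beside 0.02 over all tested genes, of which 5004 of 10714 were below 0. At both numbers 21 were lower and 19 higher, beside 29.3% and 33.9% of all tested genes. Socs3 and Htra1, 2 of the 67, were at least 2-fold lower at both, beside 0.831%, and 0 were at least 2-fold higher. With genotype as the only term 0 of the 67 passed limma's adjusted p under 0.05, and 5 had an unadjusted p under 0.05, beside 1.95% of all tested probe sets. That last share is over probe sets, not genes. The lists were drawn up with earlier results of these data known, so nothing is read from these counts.

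Igf2, the second ligand, read 935 and 74.6 in PA1 -/- cells at numbers 1 and 2, against 6680 and 96.9 in PA1 +/+ cells. The log2 difference was -2.82 at number 1 and -0.34 at number 2. Igf2r, which takes up IGF2 for degradation, read 1572 and 2112, against 1260 and 1779 (log2 difference 0.28, SE 0.298). Igfbp1 read at most 2.03 in PA1 -/- cells and 1.95 in PA1 +/+ cells.

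Among adaptors and substrates, all 7 tested genes were above 0, with a median of 0.16, and 3 of them were higher at both numbers. Sos1, the RAS exchange factor that GRB2 recruits, was the one without overlap, at 1194 and 1177 in PA1 -/- cells, against 856 and 1010 in PA1 +/+ cells (log2 difference 0.35, SE 0.238). Of all tested genes 15% were higher in PA1 -/- without overlap. Irs2 was not tested, with 48.6 and 40.2 in PA1 -/- cells, against 48.2 and 88.9 in PA1 +/+ cells.

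In PI3 kinase, AKT and mTOR signalling, 7 of 17 tested genes were lower and 10 higher, with a median of 0.10. Akt1, the kinase that carries much of the IGF survival signal, read 3907 and 3176 in PA1 -/- cells, against 2127 and 2741 in PA1 +/+ cells (log2 difference 0.54, SE 0.241). The difference was 0.87 at number 1 and 0.21 at number 2, and the other tested Akt1 probe sets gave 0.50 and 0.09. Pik3ca, the catalytic subunit p110 alpha, differed by 0.38 and Tsc1, an mTOR inhibitor, by 0.32. Other tested probe sets of Pik3ca gave 0.15 to 0.57 and those of Tsc1 0.19 and -0.23. At number 1 these Pik3ca probe sets ranged from -0.47 to 0.76. These 3 genes and Tsc2 were higher in PA1 -/- without overlap and Pdpk1 was lower, beside 15% and 11.3% of all tested genes. All of them missed the threshold.

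Negative regulators of the receptors had a median of -0.23 over 9 tested genes, 5 of them lower and 4 higher. Socs3, a cytokine-induced inhibitor that binds the insulin receptor, read 324 and 266 in PA1 -/- cells, against 744 and 621 in PA1 +/+ cells. Its log2 difference was -1.17 at number 1 and -1.19 at number 2 (mean -1.18, SE 0.274), and its other 2 probe sets gave -1.04 and -0.88. Trib3, an inhibitor of AKT, read 247 and 362, against 943 and 527 (-1.21, SE 0.402), while another probe set gave -0.81, with 0.02 at number 2. Grb10, an adaptor that restrains both receptors, differed by -0.30 (SE 0.179), with -0.91 and 0.32 by its other probe sets.

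Proteases of the binding proteins and their regulators were below 0 in 8 of 9 tested genes, with a median of -0.08, and 4 of the 9 were lower at both numbers. Htra1, a secreted serine protease that cleaves IGF binding proteins, read 1023 and 575 in PA1 -/- cells, against 3219 and 1527 in PA1 +/+ cells. It was lower by -1.64 at number 1 and -1.39 at number 2 (mean -1.52, SE 0.489), and by -1.66 by a second probe set. Adam9, a membrane metalloprotease, was the 1 higher gene (0.42, SE 0.243), and Pappa, the protease gene for IGFBP4, read 413 and 83.4, against 462 and 211.

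Of 8 tested genes of the CCN family and other proteins with an IGFBP-type domain, 3 were lower and 5 higher, with a median of 0.36. Ccn3, a matrix-associated signalling protein, read 490 and 1709 in PA1 -/- cells, against 3911 and 3078 in PA1 +/+ cells (-1.91, SE 0.624). The difference was -2.97 at number 1 and -0.85 at number 2. Ccn5 differed by -1.19 (SE 0.548) and Crim1, a transmembrane protein gene, by 0.42 (SE 0.287). Targets of FOXO factors, which insulin and IGF signalling holds in check, were below 0 in 9 of 13 tested genes, with a median of -0.10, and 6 of the 13 were lower at both numbers. Bcl2l11, which encodes the death factor BIM, read 767 and 675, against 1239 and 1164 (-0.73, SE 0.238), and Sesn1 differed by -0.55 (SE 0.254). The other 4 Bcl2l11 probe sets had means between -0.09 and -0.59. The 2 tested genes for IGF2 mRNA binding proteins differed by 0.07 (Igf2bp1) and 0.05 (Igf2bp3).

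**Figure D5:**
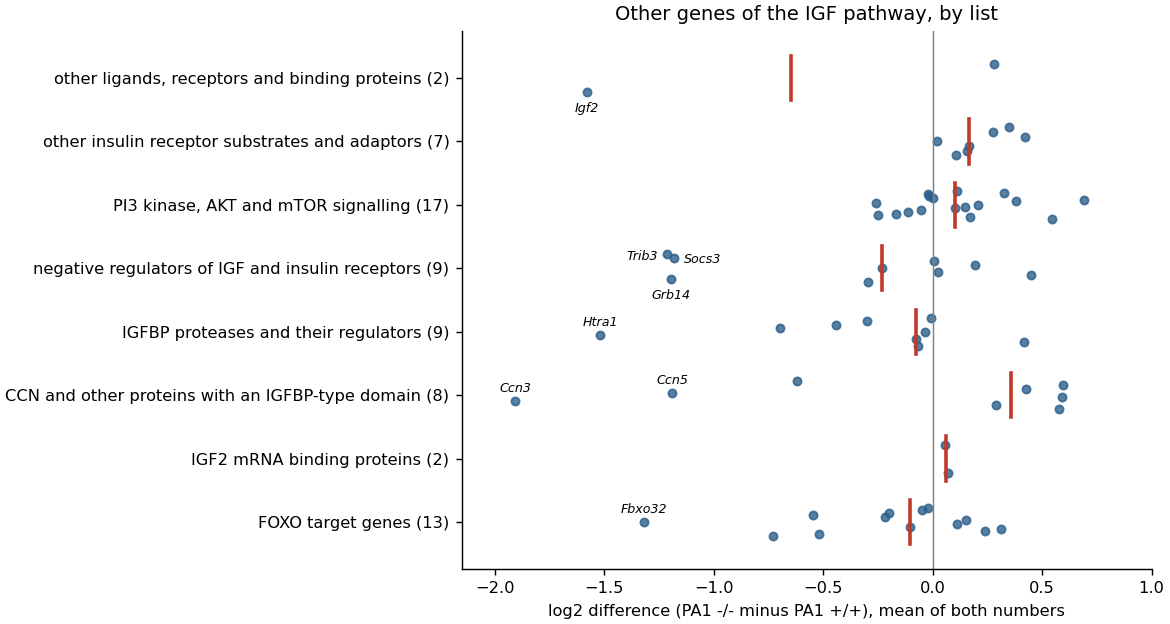
Log2 difference, PA1 -/- minus PA1 +/+, of each tested gene of 8 lists of the IGF pathway without the 10 genes above (blue points, the number tested in parentheses), with the median of each list as a red line and names on genes below -1. Most points lie near 0, and Ccn3, Igf2 and Htra1 lie farthest below it.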

How the data were processed

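RNA of 4 samples was measured on Affymetrix arrays, and the authors deposited linear probe set intensity values. They come from MAS5, per the submitters' processing notes. Its version and scaling were not given in the sources used here. A mean signal without the lowest and highest 2% of probe sets was 498 on every array, so each value is relative to its array. The number of arrays limits the precision. After leaving out 64 controls, platform annotation gave 34945 probe sets 1 symbol, 932 several and 9160 none, and 34741 were matched by gene ID to RefSeq (GRCm38.p6), which changed 0 symbols. Log2(signal + 9.96) values of the brighter 50% were fitted with limma 3.58.1 in R 4.3.3 (eBayes with a trend, 2-sided, Benjamini-Hochberg adjustment over 22519 probe sets, threshold 0.05), with genotype as the only term and 2 residual degrees of freedom. The difference between numbers was fitted with genotype as a second term. An exact test of 2 arrays against 2 cannot go below p = 0.333. The genes, lists and tests were chosen with earlier results of these data known. Named were the 10 genes, Pagr1a, up to 3 genes of each list by size among those without overlap and with 1 direction at both numbers, and the 3 most like Igfbp2; Igf2, Igf2r, Irs2, Igfbp1, Pappa, the mRNA binding protein genes, Grb14, Fbxo32 and the markers and neighbours were named after their values were seen. The sequences come from RefSeq tables. Figures were drawn with matplotlib 3.10.9.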

Additional observations from a re-analysis of the deposited data

How the results depend on the processing

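Quantile normalization, pseudocounts of 1 and 64.9, no filter, eBayes without a trend and leaving out each array in turn all gave 0 probe sets for genotype, with 283 to 1544 at an unadjusted p under 0.05. With the replicate block, the number as a term, 447 probe sets passed (1.98% of those tested), among them 9 of the 22 of the family, which were those of Igfbp2, Igfbp4, Igfbp5 and Igfbp6, all lower. As the genes were picked on that contrast, nothing is read from this. Of the 67 other pathway genes 4 passed with the block, Htra1, Socs3, Grb14 and Ccn3, all lower, beside 1.82% of all tested genes. Those lists were drawn up with earlier results known, so nothing is read from this count either. The numbers are not said to mark shared cultures. Deviations from the genotype mean correlated at 0.805 between arrays of one number. With 2 arrays per genotype both numbers must give this same value, so it is too little to settle the pairing. Calls between numbers were 6341, and 3922 without the filter, where all 45037 probe sets were tested. With a pseudocount of 64.9, 1 gene of the family in place of 3 was at least 2-fold lower at both numbers, and with probe sets averaged per gene 2 were, with Igfbp5 at -1.23. Of the 80 recomputed gene differences 79 moved by less than 1 SD between arrays, and 1 (Igfbp3, -0.40 with the pseudocount of 64.9) moved by more. The SD includes the difference between numbers. Leaving out an array moves a gene's difference by part of that same difference, which cannot exceed this SD. The count was therefore fixed in advance for left-out arrays, and nothing is read from it there. The sign turned for Igf1 with the mean of its probe sets (-0.29) and the pseudocount of 64.9 (-0.33). A gene's difference does not depend on the filter. Left-out arrays also turned the sign for Igf1, Igf1r, Igfbp7, Insr and Irs1. Dim readings limit Igfbp3 on all arrays, and Igf1, Igfbp2, Igfbp5 and Igfbp6 at number 2.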
